A study of Mus musculus with 12 samples.

Results

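Of the 898 MOF summits called in wild-type megakaryocyte-erythroid progenitors (MEP), 373 lay away from gene ends and are called distal summits here. The rule that chose them used position only, and was set with earlier results of these data known. A distal summit lay on chromosomes 1 to 19 or X, leaving out the first 4 Mb of chromosome 9, more than 1 kb from every start and end of a protein-coding gene and more than 500 bp from every tRNA or snRNA gene. Of the 829 summits on these chromosomes, 405 lay within 1 kb of a gene end, 51 lay near a tRNA or snRNA gene, 192 lay inside a protein-coding gene and 181 outside. The last 2 groups are the distal summits.

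MOF was mapped by chromatin immunoprecipitation and sequencing (ChIP-seq) in cells sorted from the bone marrow of C57BL/6 mice that were wild type or heterozygous for Mof (Mof -/+). Haematopoietic stem cells (HSC) were sorted as LSK, CD34- and Flt3-, with 15000 cells, and MEP as lineage-, Sca-1-, cKit+, CD34-, IL7r- and CD16/32-, with 30000 cells. GATA1 was mapped in HPC7, a mouse haematopoietic progenitor line grown with stem cell factor and labelled as passage 3. Each group was 1 library, so every test here compares peak lists and not conditions, and no difference has a replicate check. The sources used here do not state the age of the animals or how many went into a library. Marrow was pooled from several bones, and the heterozygous cells keep 1 wild-type Mof allele as far as the label says. Sequencing depth is unknown, and the other lists differ in length, from 64 peaks for MOF in heterozygous MEP and 338 in heterozygous HSC to 1876 in wild-type HSC, with 477 GATA1 intervals in HPC7. Peak lists do not measure expression and so could not check the sort. Of the defining markers, 0 of 7 MEP and erythroid genes, 0 of 7 HSC genes, 2 of 7 myeloid genes (Cebpe and Ly6c2), 0 of 6 lymphoid, 0 of 3 mast and basophil and 0 of 4 stromal and endothelial genes hosted or neighboured a distal summit within 50 kb. Over all protein-coding genes the share was 1.36%, or 294 of 21627.

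MOF, encoded by Kat8, acetylates lysine 16 of histone H4, a mark that loosens the packing of chromatin. It works in the MSL complex, known for its part in dosage compensation in flies, and in the NSL complex, which binds promoters of housekeeping genes. GATA1 is the transcription factor that drives erythroid and megakaryocytic gene expression, and in progenitors it is known to bind many enhancers far from promoters.

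Some distal summits sat on annotated transcription starts that are not the outer end of a protein-coding gene, namely internal starts and starts of long non-coding RNAs (lncRNA). The sequences before 6 of these starts are given as examples. Each line gives the 250 bases before the annotated start, 5′ to 3′ on the strand of the gene, from RefSeq (GRCm38.p6, the assembly behind mm10). Capitals mark motifs found by a search of both strands. The GC box was searched as GGGCGG. The ETS core, bound by factors of the ETS family, was searched as CGGAAG. The other motifs were the CCAAT box, by those letters, and the TATA box, searched as TATAAA. The stretches are H3f3b, chr11:116024505-116024754, minus strand, Sgo1, chr17:53689316-53689565, minus strand, Bclaf1, chr10:20312219-20312468, plus strand, Snhg8, chr3:123508337-123508586, minus strand, Snhg3, chr4:132353687-132353936, minus strand, and Snhg16, chr11:116671410-116671659, plus strand. They were picked after their values were seen, with the summit within 250 bases of the start. The stretches need not surround the summit. In Snhg3 it lay 5 bases past the start, outside the stretch, and in Snhg16 on the first base of the stretch.
H3f3b: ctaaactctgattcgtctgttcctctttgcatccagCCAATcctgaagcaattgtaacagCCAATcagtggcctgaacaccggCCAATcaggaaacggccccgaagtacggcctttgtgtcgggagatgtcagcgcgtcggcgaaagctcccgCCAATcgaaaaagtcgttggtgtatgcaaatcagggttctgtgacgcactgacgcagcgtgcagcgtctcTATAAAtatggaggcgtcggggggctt
Sgo1: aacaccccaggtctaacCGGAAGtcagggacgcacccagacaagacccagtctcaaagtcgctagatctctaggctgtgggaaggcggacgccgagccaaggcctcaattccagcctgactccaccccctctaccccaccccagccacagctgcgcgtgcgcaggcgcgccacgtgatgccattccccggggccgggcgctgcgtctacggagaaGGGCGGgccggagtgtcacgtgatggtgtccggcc
Bclaf1: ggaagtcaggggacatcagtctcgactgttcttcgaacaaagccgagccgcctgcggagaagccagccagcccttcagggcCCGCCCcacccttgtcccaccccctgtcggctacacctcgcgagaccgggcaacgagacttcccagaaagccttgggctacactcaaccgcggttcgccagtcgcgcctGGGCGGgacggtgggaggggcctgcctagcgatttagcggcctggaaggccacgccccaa
Snhg8: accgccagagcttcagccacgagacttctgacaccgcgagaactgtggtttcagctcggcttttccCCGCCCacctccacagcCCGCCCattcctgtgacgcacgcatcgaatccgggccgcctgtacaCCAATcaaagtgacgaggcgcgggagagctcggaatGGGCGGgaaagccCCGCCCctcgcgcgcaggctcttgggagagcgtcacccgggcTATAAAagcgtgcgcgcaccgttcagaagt
Snhg3: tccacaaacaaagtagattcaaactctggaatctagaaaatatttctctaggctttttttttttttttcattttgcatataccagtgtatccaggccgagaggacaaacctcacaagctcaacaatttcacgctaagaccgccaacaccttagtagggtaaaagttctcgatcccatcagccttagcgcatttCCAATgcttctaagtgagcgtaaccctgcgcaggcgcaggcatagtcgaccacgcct
Snhg16: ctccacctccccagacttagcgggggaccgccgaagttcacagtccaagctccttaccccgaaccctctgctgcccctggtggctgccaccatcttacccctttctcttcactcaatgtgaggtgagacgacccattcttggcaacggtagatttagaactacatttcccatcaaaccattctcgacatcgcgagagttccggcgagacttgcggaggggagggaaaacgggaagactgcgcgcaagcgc

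H3f3b encodes the replication-independent histone H3.3, Sgo1 protects centromeric cohesion and Bclaf1 is a nuclear protein of transcription and RNA processing. Snhg8, Snhg3 and Snhg16 are host genes of small nucleolar RNAs. The H3f3b stretch held 4 CCAAT boxes and a TATA box, the Snhg8 stretch 4 GC boxes, a CCAAT box and a TATA box, and the Snhg16 stretch none of these letters. Windows from 250 bases before to 50 after a start were overlapped by 44 distal summits, 28 at protein-coding and 16 at lncRNA starts. A GC box was in 54.5% of these 44 windows against 35.7% of all 32851 windows of the same length, and an ETS core in 40.9% against 16.9%. The CCAAT box (34.1% against 37.4%), the TATA box (13.6% against 13.6%) and the GATA letters AGATAA or TGATAA (13.6% against 18.6%) were at or below the share in all windows. The median GC content was 60.7% against 52.7%, and the median ratio of observed to expected CpG was 0.841 against 0.384. Among protein-coding starts alone the GC box was in 67.9% of 28 windows against 46.2% of 21262. These are matches of letters in a window, given as a description without a test.

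In all, 49 distal summits lay within 1 kb of an annotated start, of the 353 on chromosomes that the table of starts covers. The median distance was 142 bp, and 44 lay within 300 bp. Of the 49, 28 were at protein-coding starts and 21 at lncRNA starts, and 36 lay inside a protein-coding gene. Their authors' −log10 values ran from 1.61 to 11.4 with a median of 5.64, so none of the 42 distal summits above 20 was among them. Among them were H3f3b (10.4), Esyt2, which encodes a tether between endoplasmic reticulum and plasma membrane (9.40), and Snhg16 (8.82).

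Distal summits at starts were more often in the wild-type HSC list than the other distal summits, and less often in the heterozygous HSC and GATA1 lists. Over all 829 summits the shares in these lists were 30.6%, 9.53% and 6.63%, and at gene ends 38%, 3.21% and 0.741%. For the wild-type HSC list, both shares lay within the interval of the summits at starts, given next. Of the 49 summits, 18 overlapped the wild-type HSC list (36.7%, 95% interval 24.7 to 50.7), against 54 of the 304 other distal summits (17.8%, 13.9 to 22.5; odds ratio 2.68, 1.31 to 5.37, Fisher's exact test, adjusted p = 0.00775). None of the 49 was in the heterozygous HSC list (upper 95% limit 7.27%), against 64 of the 304 (21.1%, exact test, adjusted p = 0.000138). The GATA1 list held 1 of the 49 (2.04%, 0.361 to 10.7), against 49 of the 304 (16.1%; odds ratio 0.109, 0.00264 to 0.669, exact test, adjusted p = 0.0089). In the heterozygous MEP list the counts were 0 of 49 and 19 of 304, which did not pass (exact test, adjusted p = 0.0882). These 4 tests were chosen after the data were seen and adjusted among themselves. Among summits with a value above 5, the difference for the HSC list was 15.6 percentage points and did not pass (exact test, adjusted p = 0.085). These comparisons were not recomputed with more or fewer bases added to each summit.

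**Figure D1:**
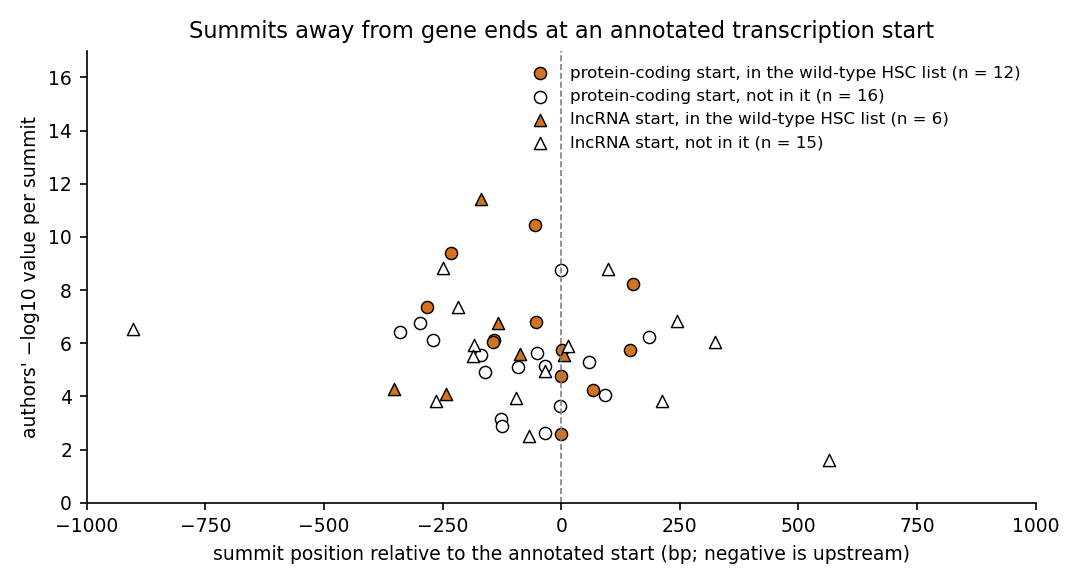
Distance in bp from the annotated start (horizontal axis, negative upstream) and authors' −log10 value (vertical axis) of the 49 distal summits within 1 kb of a start, with circles for protein-coding and triangles for lncRNA starts, filled where the wild-type HSC list holds the site. The values stay between 1.61 and 11.4, and 18 of the 49 points are filled.

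Of all 373 distal summits, 255 (68.4%) were in no other list, 41 were shared with the wild-type HSC list alone, and 77 were in the GATA1 list or a heterozygous MOF list. Absence from every other list was also common at gene ends, at 248 of 405 summits (61.2%). Near tRNA or snRNA genes it was 26 of 51. The value per summit, which the authors' caller gave and which was read as a −log10 q-value, had a median of 4.88 (range 1.57 to 22.6) in the 255, 5.77 (2.57 to 15.4) in the 41 and 20.4 (1.61 to 202) in the 77. No test was made on these medians. Of the 42 distal summits above 20, 40 were among the 77 and 2 among the 255. Several of the 40 were neighbouring summits of the same locus. Such loci were Kat8, the region near Lrrc4c and a stretch of chromosome 6 beside the short RNA gene Rn4.5s, described below. The 2 in no other list were on chromosome 12 at 97061596 (22.6), 1141 kb from the nearest protein-coding gene, Galc, and inside Myo3a, an unconventional myosin gene (chromosome 2, 22589692; 21.2).

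**Figure D2:**
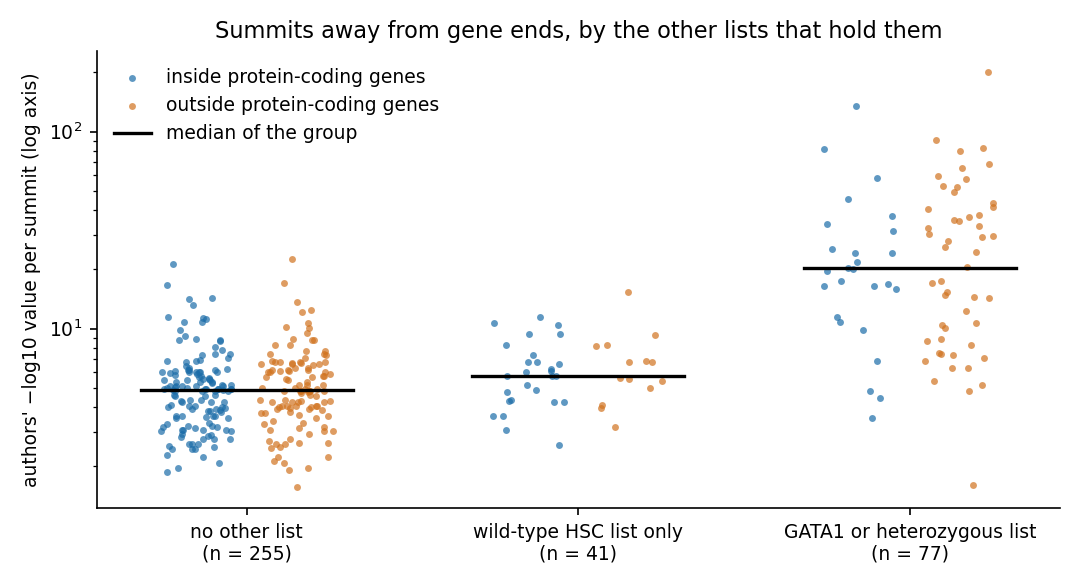
Authors' −log10 value of each of the 373 distal summits (vertical log axis) in 3 groups set by the other lists that hold them (horizontal axis), blue inside and orange outside protein-coding genes, with a line at each group's median. The medians are 4.88, 5.77 and 20.4 from left to right, with neighbouring summits of the same locus counted separately.

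Of the 41 sites shared only with wild-type HSC, 27 lay inside genes and 18 were at an annotated start, and their median distance to a gene end was 4.28 kb. Of the 77 in the GATA1 or a heterozygous list, 26 lay inside genes, 1 was at a start and the median distance was 31.1 kb. The 255 in no other list lay between, with 139 inside genes, 30 at a start and a median of 13.1 kb. Depth is unknown, so their absence from the other lists does not show that MOF was absent there. Starts on chromosome 18 were not covered, so its summits counted as not at a start. They were 2 of the 41, 2 of the 77 and 16 of the 255. Sites shared only with wild-type HSC and away from starts included 2 within 50 kb of Ptma, the gene of the small acidic nuclear protein prothymosin alpha (9.31 and 6.77), 1 inside Jund, an AP-1 subunit (4.86), and 1 inside Rad51b, a recombination gene (3.60).

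The wild-type MEP MOF summits that overlapped GATA1 intervals in HPC7 were mostly distal and rarely at gene ends. Most distal summits overlapped no GATA1 interval, and the share of GATA1 intervals that held a MOF summit was not counted. Of all 829 summits, 6.63% overlapped the GATA1 list. The count was 52 of 373 distal summits (13.9%, 10.8 to 17.8) against 3 of 405 at gene ends (0.741%, 0.252 to 2.15; odds ratio 21.6, 6.91 to 109, Fisher's exact test, p = 1.86e-13 after adjustment over the 10 planned tests). Outside genes the share was higher than inside, at 37 of 181 (20.4%, 15.2 to 26.9) against 15 of 192 (7.81%, 4.79 to 12.5; odds ratio of inside to outside 0.331, 0.162 to 0.646, exact test, adjusted p = 0.000849). The wild-type HSC list gave 658 summits by the same rule. Of these, 21 (3.19%, 2.1 to 4.83) overlapped the GATA1 list, a lower share than for the MEP list (odds ratio of MEP to HSC list 4.91, 2.85 to 8.73, exact test, adjusted p = 1.73e-09). The MEP and HSC lists were 1 library each, with 898 and 1876 peaks, so the test compares lists and not cell types. Without regions found in 4 or 5 of the 5 lists, the counts were 26 of 347 distal summits against 1 of 403 at gene ends (difference 7.24 percentage points, exact test, adjusted p = 6.06e-08). For wild-type HSC summits by the same rule, 0 of 637 then overlapped the GATA1 list. This filter counts the GATA1 list itself and removed 26 of the 52 distal summits in it, so it is not an independent check.

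The GATA1 overlap was for the most part an overlap with sites that a heterozygous MOF library also gave. Of the 52 distal summits in the GATA1 list, 48 were also in a heterozygous list, 43 of them in heterozygous HSC. The other 4 were 34.8 kb from Zfp825 (10.6), inside the lncRNA 2700054A10Rik (7.11), 9.51 kb from Fam107a (4.85) and inside the lncRNA Gm40237 near Tmem125 (1.61). All 26 distal summits in 4 or 5 lists were in the GATA1 list, and their median value was 35.3. The sources used here do not say whether blacklisted regions were removed before deposit. The part of regions with high signal in any library was not tested, since no input values were used.

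The heterozygous HSC list, with a background of 9.53% over all 829 summits, held 66 of 373 distal summits (17.7%, 14.2 to 21.9) against 13 of 405 at gene ends (3.21%, 1.89 to 5.41; odds ratio 6.47, 3.46 to 13, Fisher's exact test, adjusted p = 4.61e-11). The heterozygous MEP list, with a background of 2.65%, held 20 of 373 (5.36%, 3.5 to 8.14) against 2 of 405 (0.494%, 0.136 to 1.78; odds ratio 11.4, 2.74 to 101, exact test, adjusted p = 6.44e-05). Without regions in 4 or 5 lists the MEP counts were 4 of 347 and 0 of 403, and the difference did not pass (1.15 percentage points, exact test, adjusted p = 0.0757). That filter counts the heterozygous MEP list itself and removed 16 of the 20 distal summits in it, so the lost call cannot be read as a check. The wild-type HSC list, with a background of 30.6%, went the other way, with 75 of 373 distal summits (20.1%, 16.4 to 24.5) against 154 of 405 at gene ends (38%, 33.4 to 42.8; odds ratio 0.411, 0.293 to 0.573, exact test, adjusted p = 1.17e-07). This last difference rests on the width given to each summit. With 50 bp in place of 150 bp on each side it was −5.37 percentage points and did not pass (exact test, adjusted p = 0.085).

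**Figure D3:**
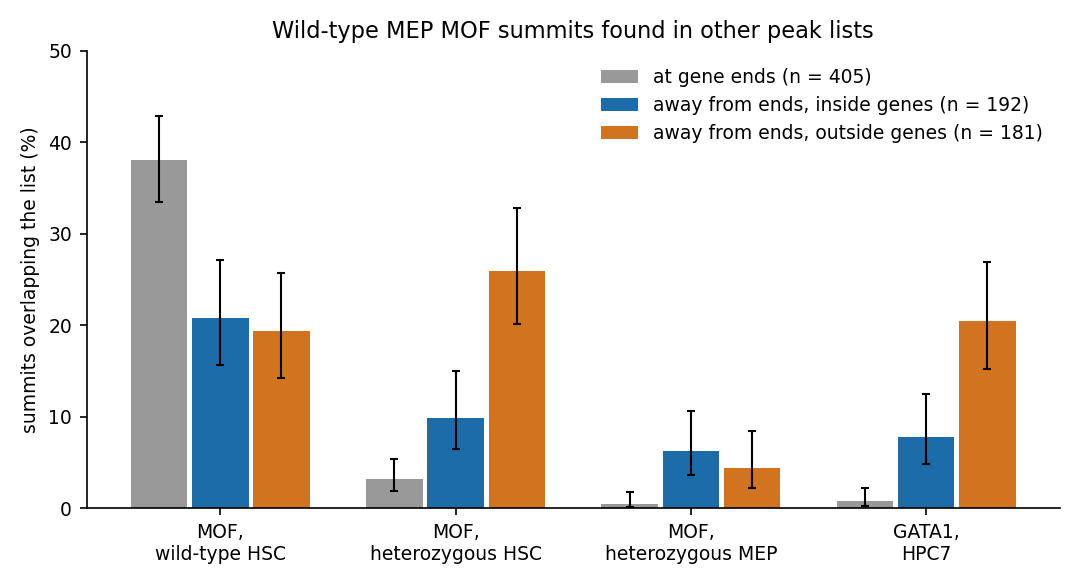
Percent of wild-type MEP MOF summits that overlap each of the 4 other lists (horizontal axis), in grey at gene ends (n = 405), in blue distal and inside genes (n = 192) and in orange distal and outside genes (n = 181), with 95% Wilson intervals as error bars. The grey bar is highest for wild-type HSC at 38% and lowest for heterozygous MEP at 0.494%, with GATA1 at 0.741%.

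Inside and outside genes, the share in the wild-type HSC list was 40 of 192 (20.8%, 15.7 to 27.1) and 35 of 181 (19.3%, 14.2 to 25.7), an odds ratio of 1.1 whose interval ran from 0.641 to 1.89 (Fisher's exact test, adjusted p = 0.796). The inside share itself was 51.5% of distal summits in MEP and 56.2% of those in wild-type HSC (370 of 658), a difference that missed the threshold (odds ratio 0.826, 0.635 to 1.07, exact test, adjusted p = 0.169). Values above the median of the whole wild-type MEP list, 5.61, were held by 184 of 373 distal summits (49.3%) and 166 of 405 at gene ends (41%; odds ratio 1.4, 1.04 to 1.88, exact test, adjusted p = 0.0301). Inside genes 84 of 192 passed that median and outside genes 100 of 181 (43.8% and 55.2%; odds ratio 0.631, 0.41 to 0.968, exact test, adjusted p = 0.0372). Both calls on score were lost under several of the settings tried.

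The shares in other lists were also counted by distance from genes. In the bin from 1 to 2 kb from a gene end, 34.1% of 44 distal summits were in the wild-type HSC list and 4.55% in the GATA1 list. From 2 to 5 kb the shares were 29.4% and 5.88% of 51, from 5 to 20 kb 14.2% and 10% of 120, and from 20 to 100 kb 15.5% and 13.6% of 110. Beyond 100 kb, 22.9% of 48 were in the wild-type HSC list and 41.7% (28.8 to 55.7) in the GATA1 list. Neighbouring summits were counted separately in that bin, among them those near Lrrc4c and near Gm2244, all in the GATA1 list. Others there, such as those near Arid1b, Fgf14, Pex2 and Csmd1, were in 4 or 5 lists. The intervals treat every summit as a separate site. The heterozygous HSC share was between 7.84% and 10.8% in the 3 bins up to 20 kb, 21.8% from 20 to 100 kb and 43.8% (30.7 to 57.7) beyond. Annotated starts made up 16 of the 44 nearest summits and 1 of the 48 farthest. No trend was tested.

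**Figure D4:**
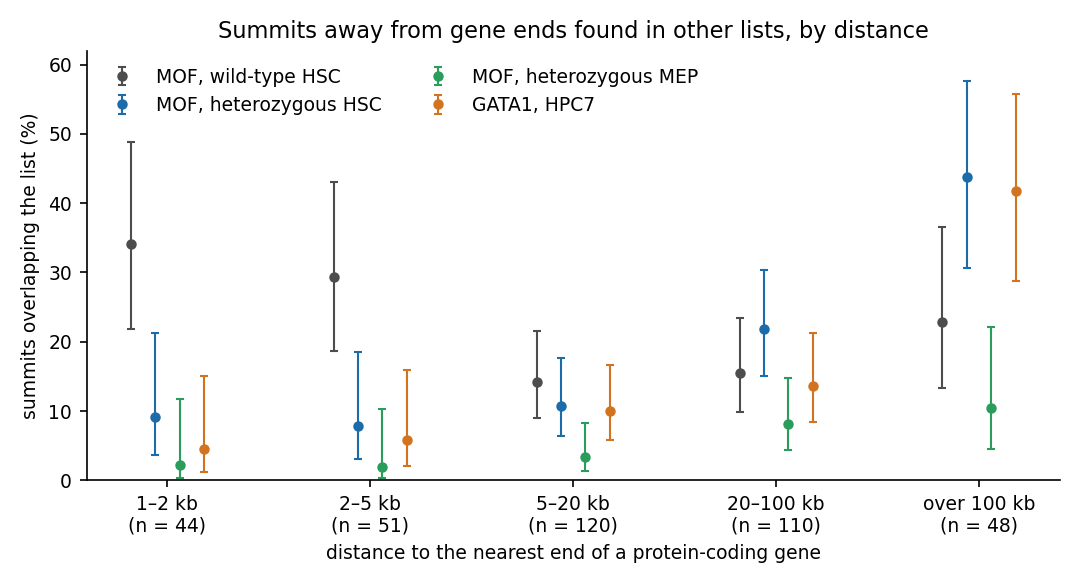
Percent of distal summits overlapping each other list (vertical axis) in 5 bins of distance to the nearest end of a protein-coding gene (horizontal axis), as points with 95% Wilson intervals. The GATA1 share is 4.55% in the nearest bin and 41.7% in the farthest, where the heterozygous HSC share is 43.8%. Neighbouring summits of the same locus are counted separately.

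The highest distal summit lay outside protein-coding genes, in the lncRNA Gm34259 on chromosome 17 at position 4626351. Its value was 202 in wild-type MEP. In heterozygous HSC the overlapping peak had a −log10 q of 92.0 and a 29.8-fold enrichment, and in heterozygous MEP 60.4 and 5.93-fold. The GATA1 list held an interval of 266 bp there, and the wild-type HSC list held none. The nearest protein-coding gene, Arid1b, which encodes a subunit of the BAF chromatin remodeller, lay 367.9 kb away.

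The second highest site outside genes lay in the lncRNA Gm36876, 61.1 kb from Axin2, a feedback inhibitor of Wnt signalling (chromosome 11, 109011906). All 5 lists held it. The value was 90.7 in wild-type MEP and 26.7 in wild-type HSC, with a −log10 q of 65.7 in heterozygous HSC (4.36-fold) and 14.9 in heterozygous MEP (3.51-fold). Next came a site in the ribosomal RNA pseudogene Rn18s-rs5 on chromosome 17 (82.3). No wild-type HSC peak overlapped the summit, but 1 lay elsewhere in the GATA1 interval of 5784 bp there, and the heterozygous enrichments were 3.59-fold in HSC and 2.22-fold in MEP.

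Among the other leading sites outside genes were 2 clusters. On chromosome 14, summits at 19418799 (79.8) and 19415878 (57.7), 114.9 and 117.8 kb from Gm2244, fell in the same GATA1 interval of 3958 bp. On chromosome 2, 3 summits between 98662573 and 98666807 had values of 59.7, 43.4 and 52.3 and lay over 1000 kb from the nearest gene, Lrrc4c, which encodes a synaptic adhesion protein. Each of these 5 overlapped the GATA1 and heterozygous HSC lists and none the heterozygous MEP list. A site 124.2 kb from Fgf14 (68.2) was in the wild-type HSC list at 2.55 and in heterozygous HSC at 58.9 (3.38-fold). A site 282.0 kb from Pex2, a gene of peroxisome assembly (52.7), was in all 5 lists. A site in the lncRNA Gm33838, 29.5 kb from Rpusd4 (49.4), was in the GATA1 and heterozygous HSC lists. A site 25.5 kb from Col19a1 on chromosome 1 (65.2) was shared with heterozygous HSC alone, at a −log10 q of 9.67 and 2.20-fold.

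Inside genes, Kat8 led. The gene that encodes MOF hosted 3 distal summits spread over 9218 bp of its 13.3 kb. A further wild-type MEP summit inside Kat8 lay within 1 kb of a gene end and so is not a distal summit. At position 127924655 of chromosome 7 the value was 135 in wild-type MEP and 22.6 in wild-type HSC, and heterozygous MEP had a −log10 q of 58.5 with 6.56-fold enrichment. At 127915437 the values were 58.2 and 24.5 in the wild-type lists, and 98.4 with 11.6-fold in heterozygous MEP. At 127920512 the value was 24.2 in wild-type MEP, and heterozygous MEP had 88.3 with 14.5-fold, while wild-type HSC held no peak. Each of the 3 overlapped a GATA1 interval and none a heterozygous HSC peak. The lists do not measure gene dose or expression of Kat8.

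In Numa1, whose product organises the spindle poles, the summit lay on the pseudogene Gm8523 (82.0). It was at 12.3 in wild-type HSC and at a −log10 q of 61.7 in heterozygous MEP (9.65-fold), with a GATA1 interval and no heterozygous HSC peak. The distal summits inside genes that overlapped all 4 other lists were 5. They lay in Filip1l (45.4), Cdk8, the kinase of the Mediator complex (34.2), Zc3h7a (16.9), Jarid2, a partner of Polycomb repressive complex PRC2 (15.9), and Peak1 (10.8). In these 5 genes the wild-type HSC value ran from 24.8 to 57.1, the heterozygous HSC enrichment from 4.21-fold to 6.08-fold and the heterozygous MEP enrichment from 3.54-fold to 11.3-fold. For Cdk8, Zc3h7a, Jarid2 and Peak1 the value was higher in wild-type HSC (35.7, 57.1, 24.8 and 29.0) than in wild-type MEP, and for Filip1l it was lower (33.5), on scales set by separate libraries of unknown depth. Sites in Myo3a, Chl1, Cpeb4 and Camk1d, with values between 21.2 and 37.3, were in 1 to 3 of the 5 lists.

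Some sites were in a heterozygous MOF list but not in the GATA1 list. In Camk1d, a calcium-dependent kinase gene, the value was 21.9 in wild-type MEP, and heterozygous MEP had a −log10 q of 31.1 with 16.8-fold enrichment. In Cntnap5b, of the neurexin family, it was 9.89, with 20.8 in wild-type HSC and a −log10 q of 8.18 (9.31-fold) in heterozygous MEP. The other 18 of the 20 distal summits in the heterozygous MEP list were also in the GATA1 list. Myo3a at 22587834 (37.3) and Cpeb4, a regulator of mRNA polyadenylation (25.5), were shared with heterozygous HSC, at 6.04-fold and 7.66-fold. Unlike these, the sites in Chl1, a neural adhesion gene (31.45), and Dpp9, a peptidase gene (17.4), were also in the GATA1 list. Their heterozygous HSC peaks had 2.89-fold and 14.8-fold enrichment.

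One stretch of chromosome 6 held 15 of the 38 distal summits of that chromosome, beside Rn4.5s, which encodes a short RNA transcribed by RNA polymerase III from tandem repeats in rodents. RefSeq annotates Rn4.5s from 47654921 to 47655094, 174 bp, and the first summit lay 135 bp past its end. From there the 15 summits ran to 47772300, a span of 117.1 kb, 5 of them inside the predicted genes Gm40369, Gm40367, Gm40365, Gm36327 and Gm40363 and 10 outside. A further wild-type MEP summit in the stretch (34.4) lay within 1 kb of a gene end and so is not a distal summit. Over these 16 summits, 14 of the gaps were below 6 kb, from 4274 to 5543 bp with a median of 4339 bp. The remaining gap was 54604 bp.

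The values of the 15 ran from 8.23 to 41.6 with a median of 24.6. Of the 15, 11 overlapped the wild-type HSC list, 14 the heterozygous HSC list, 3 the GATA1 list and 0 the heterozygous MEP list. In the stretch as a whole the wild-type HSC list held 12 peaks with values from 6.25 to 24.1, and the heterozygous HSC list 16 peaks with enrichments from 2.09-fold to 4.48-fold. Reads from near-identical repeats cannot be placed on 1 copy with certainty, and the sources used here do not say how such reads were handled. The 15 summits lie in 1 stretch and are not independent sites. Without them and the Kat8 summits, the comparisons of distal with gene-end summits gave 12.5 percentage points for GATA1, 11.9 for heterozygous HSC, 4.54 for heterozygous MEP and −20.3 for wild-type HSC, each past the threshold.

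**Figure D5:**
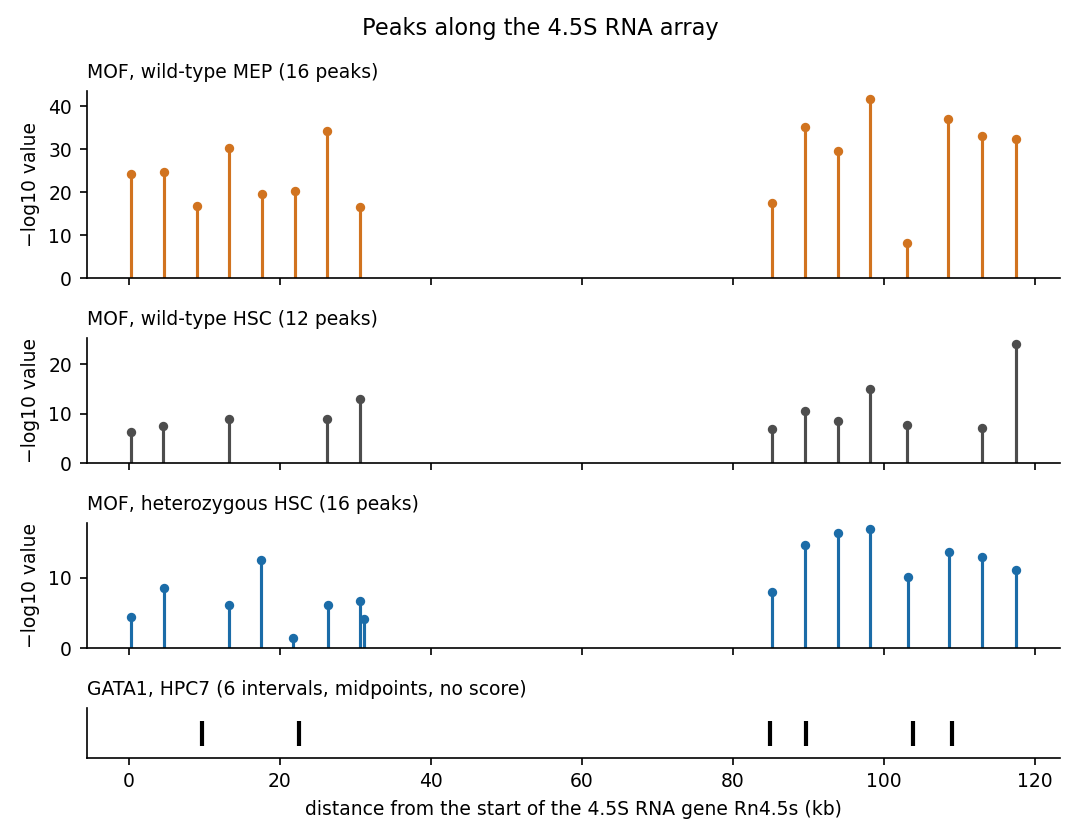
Authors' −log10 value (vertical axes) of peaks along the stretch beside Rn4.5s, by distance from the start of that gene in kb (horizontal axis), in 3 MOF lists, with midpoints of the GATA1 intervals as ticks. The 16 wild-type MEP peaks stand in 2 blocks of evenly spaced points, and most have a heterozygous HSC peak at the same place.

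Other small non-coding RNA genes lay within 1 kb of few distal summits, 8 in all with Rn4.5s. The others included Scarna2, a guide RNA of Cajal bodies, at 318 bp, Rn7s2, an RNA of the signal recognition particle, at 308 bp, and the small nucleolar RNA genes Snora24, Snora73a and Snord22 in their hosts Snhg8, Snhg3 and Snhg1. The bodies of lncRNAs held 47 distal summits, 38 of them outside protein-coding genes.

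The 185 host genes had a median length of 71.6 kb against 17.3 kb for all 21627 protein-coding genes, a comparison that the distance of 1 kb from both ends itself favours. Besides Kat8, 5 genes hosted 2 distal summits each, namely Cd47, the antiphagocytic surface protein (3.07 and 6.06), Fcho2 (7.10 and 7.39), Myo3a (37.3 and 21.2), Pcca, of propionate breakdown (6.43 and 16.5), and Sgms1, of sphingomyelin synthesis (3.30 and 6.20). Of 39 erythroid genes, 1 hosted or neighboured a distal summit within 50 kb, the spectrin gene Sptb (4.31). The counts were 1 of 30 stem and progenitor factors, Etv6 (2.52), 1 of 15 megakaryocyte genes, Rab27b (2.46), and 2 of 59 chromatin genes, Kat8 and Jarid2. These are shares from 2.56% to 6.67%, beside the 1.36% of all protein-coding genes. Sptb, Etv6 and Rab27b each had their site in no other list.

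Distances to the nearest gene end had a median of 12.2 kb inside genes and 17.7 kb outside, with maxima of 359.9 and 1141 kb. Just past the limit of 1 kb lay the summits near Ppp6r2 (1054 bp, value 5.38), Kat8 and Prss8 (1062 bp, 135) and Gadd45a (1072 bp, 3.82). Just within it lay those near Mtrf1l (977 bp, 8.42), Rpl3 (977 bp, 3.23) and Cabyr (974 bp, 5.27).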

How the data were processed

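Each list belongs to 1 sample. Bowtie2 2.3.0.1, deepTools, MACS2 and mm10 are named per the submitters' processing notes. Tool settings, filters on duplicates and blacklisted regions, and the choice of input were not given in the sources used here. The deposited wild-type MOF lists give a 1 bp summit with a −log10 value per peak, which no header names. Its minimum of 1.35 in wild-type MEP lay just above 1.3, the −log10 of 0.05, and it was read as a −log10 q-value. The deposited heterozygous lists give intervals with the authors' fold enrichment, a −log10 p-value, a −log10 q-value and a score that was not used. The deposited GATA1 list gives intervals only. These values come from the authors' caller and only describe peaks within a list.

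To each side of a wild-type summit 150 bp were added, giving 301 bp, and an overlap of at least 1 bp counted as shared. Genes and starts came from RefSeq GRCm38.p6. Shares have 95% Wilson intervals, which cover counting error only. Lists were compared with two-sided Fisher's exact tests (scipy 1.17.1, Python 3.11.15), Benjamini-Hochberg adjusted over 10 tests, or over 4 for annotated starts, with a threshold of 0.05. Summits are not replicates, and neighbouring summits share a locus. The scripts were tested on simulated data. The array beside Rn4.5s was taken as summits chained by gaps below 60 kb. The search for GATA motifs under the summits was planned and not run, since the only sequence used was a RefSeq table of windows at annotated starts. A count of lists for a region is over intervals that overlap each other in a chain. Distal summits and gene lists were chosen with earlier results of these data known. Genes were named by a rule: the 12 highest distal summits inside and outside genes, those in the GATA1 or a heterozygous list up to 12 each, listed genes with a site within 50 kb, genes with 2 or more sites, and the 3 summits on either side of 1 kb. Others were named after their values were seen. Of the 12 samples of the series, 5 were used. Coordinates are 1-based.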

Additional observations from a re-analysis of the deposited data

How the results depend on the processing

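Alternatives changed the extension, the distance to a gene end, the score threshold, the treatment of tRNA and snRNA genes, of regions in 4 or 5 lists and of summits within 10 kb, and, chosen after seeing the data, left out the Rn4.5s array with Kat8 or took starts within 300 bp. Of the tested values recomputed, 86 kept their direction and their side of the threshold, 12 lost their call and 4 changed sign. Of the counts of distal summits, 8 stayed within 1.5 times and 1 did not. With a score above 5, 218 distal summits remained. The differences below are in percentage points, and where no reason is given the cause was not tested. For the wild-type HSC list, inside minus outside was 1.5, never past the threshold, and changed sign to −2.58 with 50 bp, −5.78 at 5 kb, −0.186 with a score above 5 and −0.585 with tRNA and snRNA sites kept. Distal minus gene-end for that list fell to −5.37 with 50 bp. For scores above the median, distal minus gene-end was no longer called at 2 kb (7.37), above 5 (6.83), without regions in 4 or 5 lists (4.84), by loci of 10 kb (4.4) and without the array and Kat8 (6.07). Inside minus outside on score was no longer called above 5 (−6.95), without regions in 4 or 5 lists (−9.63), with tRNA and snRNA sites kept (−8.72) and by loci (−10.4). The heterozygous MEP difference without regions in 4 or 5 lists was 1.15, under a filter that counts the heterozygous MEP list itself. The difference for annotated starts in the wild-type HSC list above 5 was 15.6. No paired analysis was possible because each group was 1 library. The GATA motif test and its alternatives were not run, since sequence was used only for windows at annotated starts. Depth is unknown and limits every absence from a list.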
